A study of Mus musculus with 8 samples.

Results

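The 9 nuclear genes that encode subunits of respiratory complex III (Uqcrc1, Uqcrc2, Cyc1, Uqcrfs1, Uqcrb, Uqcrh, Uqcrq, Uqcr10 and Uqcr11) were followed in bulk tongue RNA of 4 wild type (WT) mice and 4 mice heterozygous for the A17 allele of PABPN1 (A17/+). The genes were listed by symbol, and all 9 were found among the 19857 genes of the count table. Of these 19857 genes, 5066 had enough counts to be tested, and 8 of the 9 subunits were among them. All mice were female and 12 months old, the A17/+ line is a model of oculopharyngeal muscular dystrophy, and PABPN1 is the nuclear protein that binds poly(A) tails. The RNA was extracted from sections of the median tongue, so each library mixes muscle with epithelium, vessels, fat and connective tissue. In such a bulk sample, fewer cells of a type and less RNA per cell cannot be told apart. The labels give no more on the line (no promoter, transgene or littermate status), and 1 library was made per mouse.

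Complex III, the cytochrome bc1 complex, sits in the inner mitochondrial membrane. It takes electrons from reduced coenzyme Q (ubiquinol), passes them to the small carrier cytochrome c and moves protons across the membrane on the way. Its catalytic core is cytochrome b, encoded by mitochondrial DNA, together with cytochrome c1 (Cyc1) and the Rieske iron-sulfur protein (Uqcrfs1). Around them lie a pair of large core proteins facing the matrix (Uqcrc1 and Uqcrc2) and several small subunits. Skeletal muscle, the bulk of the tongue, depends on this chain for sustained work, and all subunits but cytochrome b must be made from nuclear mRNAs and imported.

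In A17/+ tongues, 7 of the 8 tested subunits rose and none fell (quasi-likelihood test of edgeR, Benjamini-Hochberg adjusted p under 0.05). Over all tested genes 6.34% rose and 2.61% fell by the same rule. The median log2 fold change (A17/+ minus WT) was 2.50 for the 8 subunits and 0.01 for all tested genes. The rise was unequal: the small subunit Uqcr11 rose 17.9-fold (95% interval 7.62 to 42.2), the Rieske protein Uqcrfs1 rose 3.37-fold (2.21 to 5.13), and the core protein Uqcrc1 was 1.34-fold higher (1.07 to 1.68) without passing the test. Uqcr11, Uqcrc2, Uqcrh and Uqcrq had enough counts to be tested only because of the A17/+ libraries. Levels did not overlap between the groups for any of the 9 subunits, a pattern that 8.57% of all tested genes showed in the same direction.

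The 8 libraries held 205696 (WT 4) to 485326 (A17/+ 1) molecules counted by unique molecular identifiers (UMIs), and levels below are CPM (counts scaled to a common library size, in the usual unit) of the tested genes' counts after TMM scaling. The smallest library was WT, and 3 counts in it correspond to 16.3 CPM. Single low values therefore carry a large counting error. Markers of skeletal muscle summed to 81683 to 111954 CPM in WT and to 111127 to 129175 CPM in A17/+. Of these 12 markers 7 were called higher and 0 lower, where 6.34% of all tested genes rose and 2.61% fell. Ttn and Myh4 had the most counts of the muscle markers in every library. Tongue epithelium markers summed to 14994 to 16984 CPM in WT and to 10725 to 20886 CPM in A17/+, with 1 of 13 called higher and 2 lower. Salivary gland markers had 922 counts in WT 1, 0 to 3 in the other WT libraries and 5 to 20 in A17/+. By summed complex III RNA, A17/+ 1 stood apart from the other A17/+ libraries and nearer to WT. Over all genes 321 rose and 132 fell, and with libraries scaled by their totals only the split was 279 to 289, because the median gene then shifted to -0.11 on the log2 scale. The 7 subunits called higher were called with that scaling too.

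Promoter sequence is shown for 3 subunits, chosen to contrast the one with the largest tested rise (Uqcr11), a small subunit with a match to the same motif (Uqcrh), and the one that did not pass the test (Uqcrc1). The sequences are from RefSeq (build GRCm38.p6) and give the 250 bases before the annotated start, 5′ to 3′ on the strand of the gene. Uqcr11 lies on chr10:80406822-80407071, minus strand, Uqcrh on chr4:116075071-116075320, minus strand, and Uqcrc1 on chr9:108936398-108936647, plus strand. Capitals mark each match to a searched motif.
Uqcr11: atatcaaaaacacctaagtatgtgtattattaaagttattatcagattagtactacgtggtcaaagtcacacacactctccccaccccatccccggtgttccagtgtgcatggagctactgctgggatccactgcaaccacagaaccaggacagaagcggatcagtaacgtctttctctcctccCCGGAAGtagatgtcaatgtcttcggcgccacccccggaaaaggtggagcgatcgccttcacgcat
Uqcrh: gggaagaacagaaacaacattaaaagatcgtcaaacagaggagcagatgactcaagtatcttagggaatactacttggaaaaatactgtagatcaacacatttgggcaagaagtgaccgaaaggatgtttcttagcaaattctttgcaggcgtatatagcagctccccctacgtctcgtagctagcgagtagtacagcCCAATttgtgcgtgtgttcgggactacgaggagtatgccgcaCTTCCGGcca
Uqcrc1: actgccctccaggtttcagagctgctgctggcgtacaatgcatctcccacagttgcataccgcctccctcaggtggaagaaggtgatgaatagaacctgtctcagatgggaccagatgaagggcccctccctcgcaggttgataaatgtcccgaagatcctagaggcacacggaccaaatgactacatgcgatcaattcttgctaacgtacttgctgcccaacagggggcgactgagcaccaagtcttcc

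Of the 9 subunits, 5 had a promoter entry (Uqcrc1, Uqcrfs1, Uqcrh, Uqcr10 and Uqcr11). The ETS motif CCGGAAG, the binding letters of the GABP factor also known as NRF2, was found in Uqcrh and Uqcr11, on either strand, and in 6.95% of 32536 mouse promoter windows of the same length. The CCAAT box was found in Uqcrh and Uqcr10, and in 33.8% of all windows. The NRF1 motif (GCGCANGCG) was in 0 of the 5 windows and in 5.2% of all. Also in 0 of the 5 were the YY1 motif (AAGATGGC, 1.57% of all), the ERR motif (TCAAGGTCA, 0.375%), the SP1 motif (GGGCGG, 33%) and the E box CAGCTG (13.1%). Both strands were searched, and no match overlapped another. The Uqcrc1 window holds none of the 7 motifs, which says only that these letters are not in it.

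The 9 genes are spread over 7 chromosomes and all are protein coding (GENCODE, the release for mm10). The core protein genes are Uqcrc1, at chr9:108936633-108949623 with 13 exons, and Uqcrc2, at chr7:120635176-120659524 with 14 exons. The catalytic subunit genes are Cyc1, at chr15:76343523-76346260 with 7 exons, and Uqcrfs1, at chr13:30540308-30545362 with 2 exons. Of the small subunits, Uqcrb is at chr13:66900617-66905378 with 4 exons, Uqcrh at chr4:116066965-116075071 with 4 exons, and Uqcrq at chr11:53427922-53430831 with 2 exons. The remaining small subunits are Uqcr10, at chr11:4701973-4704342 with 2 exons, and Uqcr11, at chr10:80402997-80406830 with 3 exons. Their mRNAs fall into long ones (Uqcrc1 1653 nt, Uqcrc2 1896 nt, Cyc1 1520 nt, Uqcrfs1 1363 nt) and short ones (Uqcrb 535 nt, Uqcrh 547 nt, Uqcr11 445 nt, Uqcr10 434 nt), while Uqcrq has principal transcripts of 405 and 1521 nt.

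Uqcrc1 encodes the first core protein, related to the mitochondrial processing peptidase. The WT libraries, 1 to 4 in order here and below, held 669, 491, 531 and 466 CPM. The A17/+ libraries, in the same order, held 789, 672, 689 and 755 CPM. The highest WT library (WT 1) and the lowest A17/+ library (A17/+ 2) nearly touched, and A17/+ 1 was the highest of all 8. The log2 fold change of 0.42 ± 0.16 (SE, n = 4 per group) had an edgeR adjusted p of 0.0962. It passed the threshold without WT 1 (log2 fold change 0.52, edgeR adjusted p = 0.031), the library with the salivary gland markers.

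Uqcrc2 encodes the second core protein, the partner of Uqcrc1. The WT libraries held 20.1, 29.1, 16.9 and 27.1 CPM, and A17/+ 1 to 4 held 49.0, 220, 206 and 168 CPM. Every A17/+ library lay above every WT library, and A17/+ 1 was the lowest of them. The log2 fold change was 2.79 ± 0.44 (SE), with an edgeR adjusted p of 0.00324. In WT the level per kilobase of mRNA was 326 ± 54.6 CPM per kb (SD, n = 4) for Uqcrc1 and 12.3 ± 3.03 for Uqcrc2. In A17/+ these levels were 440 ± 33.3 and 84.9 ± 41.0 CPM per kb.

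Cyc1 encodes cytochrome c1, which carries a haem and hands the electron to cytochrome c. Levels of 75.8, 54.9, 47.4 and 37.9 CPM across the WT libraries compared with 78.0, 299, 201 and 231 CPM across the A17/+ libraries. Library A17/+ 1 lay just above WT 1, and the other A17/+ libraries were well clear of WT. Cyc1 rose with a log2 fold change of 1.84 ± 0.36 (SE), edgeR adjusted p = 0.00728.

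Uqcrfs1 encodes the Rieske protein, whose iron-sulfur cluster takes the first electron from ubiquinol. Its level was 71.3, 67.9, 71.1 and 81.3 CPM in WT 1 to 4, the narrowest spread of any tested subunit relative to its mean. A17/+ 1 to 4 held 114, 291, 311 and 268 CPM. All A17/+ libraries were above WT, and the log2 fold change was 1.75 ± 0.29 (SE), edgeR adjusted p = 0.00278. The log2 ratio of Uqcrfs1 to Cyc1, the catalytic subunits, differed by less than its spread between libraries: it was 0.43 ± 0.45 (SD, n = 4) in WT and 0.32 ± 0.30 in A17/+ (exact permutation p = 0.714, two-sided; adjusted over 28 pairs 0.741).

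**Figure D1:**
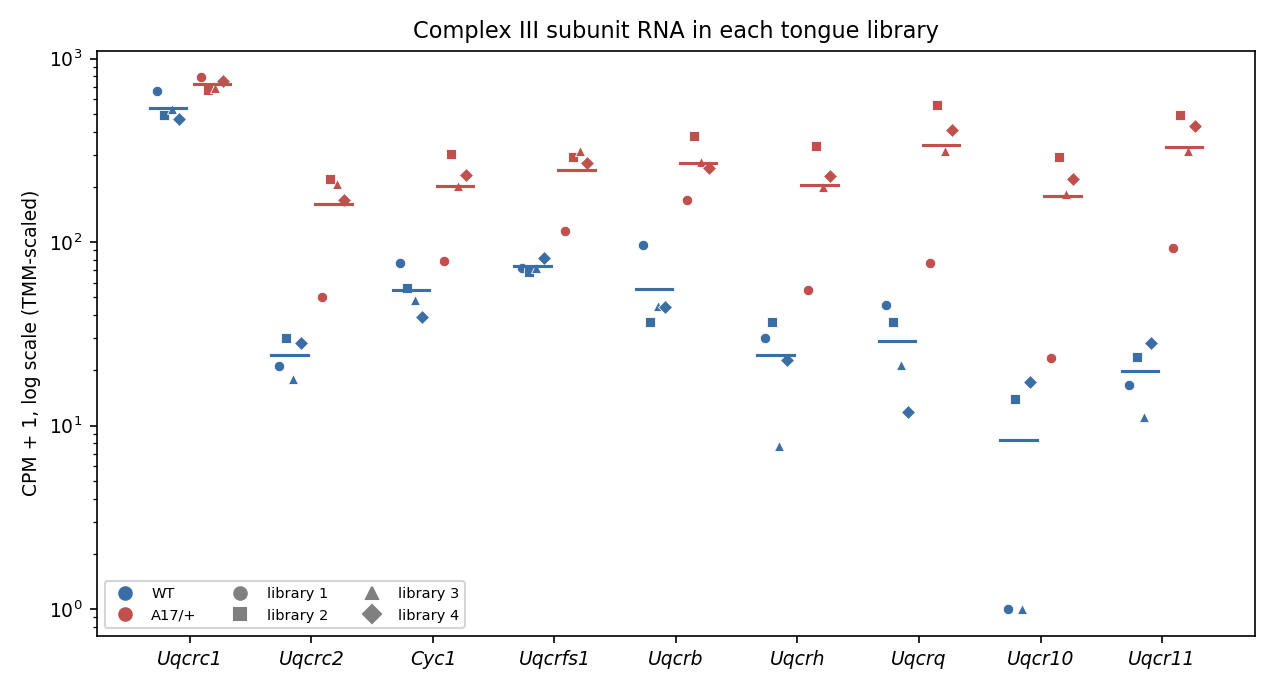
Level of each complex III subunit in each library, as CPM + 1 on a log axis. Blue symbols are WT and red symbols A17/+, the symbol shape gives the library number, and short lines are the group means. The A17/+ library 1 (red circles) is the lowest A17/+ library for every subunit but Uqcrc1, where it is the highest (789 CPM).

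Among the small subunits, Uqcrb, which lies against cytochrome b near the ubiquinone site, held 95.8, 35.6, 44.0 and 43.3 CPM in WT 1 to 4. In A17/+ 1 to 4 it held 169, 378, 271 and 251 CPM. WT 1 was well above the other WT libraries and still below A17/+ 1, so the groups did not overlap. Uqcrb rose with a log2 fold change of 2.21 ± 0.32 (SE), edgeR adjusted p = 0.00192, the smallest of the subunits.

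Uqcrh is the acidic hinge protein at the docking face for cytochrome c. Its WT libraries held 29.0, 35.6, 6.77 and 21.7 CPM, and its A17/+ libraries held 53.5, 333, 198 and 228 CPM. The WT 3 value rests on very few molecules, and A17/+ 1 again lay closest to WT. The log2 fold change was 3.06 ± 0.58 (SE), edgeR adjusted p = 0.0108.

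Uqcrq, a small membrane-spanning subunit next to cytochrome b, held 44.6, 35.6, 20.3 and 10.8 CPM in WT 1 to 4. Its A17/+ values were 75.8, 559, 311 and 405 CPM in libraries 1 to 4, all above WT. The log2 fold change was 3.46 ± 0.64 (SE), edgeR adjusted p = 0.0132. Without WT 3 this call was lost (log2 fold change 3.30, edgeR adjusted p = 0.0601).

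Uqcr11 is the smallest peripheral subunit. Its WT values were 15.6, 22.6, 10.2 and 27.1 CPM, against 91.4, 491, 311 and 428 CPM across the A17/+ libraries. The lowest A17/+ library (91.4 CPM) was far above the highest WT library (27.1 CPM). The log2 fold change of 4.16 ± 0.56 (SE), edgeR adjusted p = 0.00319, was the largest of the 8 tested subunits. With raw WT counts of 7, 7, 3 and 5, no WT library reached the level of the filter on counts. Uqcr11 was therefore tested only because its A17/+ libraries were high. Uqcrc2, Uqcrh and Uqcrq also reached that level in too few WT libraries to pass on WT alone.

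Uqcr10, a small subunit close to cytochrome c1 and the Rieske protein, was almost undetected in WT, with raw counts of 0, 4, 0 and 3. The A17/+ libraries gave raw counts of 10, 102, 64 and 77. It did not pass the filter on counts, because too few libraries reached the filter's level: all WT libraries and A17/+ 1, with 10 counts in the deepest library, were below it. A count of 0 allows up to 6.69 CPM in WT 1 and 10.2 CPM in WT 3 (3 counts, counting error only). The WT mean of 7.30 ± 8.53 CPM compared with an A17/+ mean of 178 ± 113 CPM (SD, n = 4), with no overlap (exact permutation p = 0.0286, two-sided, the smallest that 4 against 4 can give). In a fit of all 19857 genes without a filter its log2 fold change was 4.75 (95% interval 1.91 to 7.59) with an edgeR adjusted p of 0.107. It passed when genes were kept by a mean count of at least 10 (log2 fold change 4.83, edgeR adjusted p = 0.025) and when A17/+ 1 was left out (5.18, edgeR adjusted p = 2.77e-07). It did not pass with any 1 WT library left out (edgeR adjusted p 0.0516 to 0.0861) or with limma-trend on the deposited log2 values (adjusted p = 0.0512).

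Calls depended on the library left out and on the tool. With both libraries numbered 1 left out, all 9 subunits passed the filter and all 9 rose, where 14.2% of all tested genes rose. With limma-voom 2 of 8 subunits rose (Uqcrfs1 and Uqcrb), where 2.86% of all genes rose, and the other 5 subunits called by edgeR had limma-voom adjusted p between 0.0709 and 0.169. Thinned to the smallest library, 6 of 7 tested subunits rose, where 7.17% of all tested genes rose, and Uqcrh had too few counts to be tested.

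Within A17/+, the share of short transcripts moved with the subunits. Nuclear transcripts under 1000 nt took 4.20% to 4.83% of the counts in WT and 4.63%, 9.35%, 6.90% and 7.08% in A17/+ 1 to 4. The A17/+ libraries 2, 4, 3 and 1 had this order, from high to low, in both that share and the summed level of the subunits. Within WT the order was 1, 3, 2 and 4 for the share and 1, 2, 3 and 4 for the summed level. A17/+ 1 lay inside the WT range of the share, while its summed level was above every WT library. With a trend over transcript length removed from each library, the same 7 subunits were called higher, beside 6.52% of all genes, but the median log2 fold change of the 8 subunits was 1.67 in place of 2.50. The short Uqcrb went from 2.21 to 1.01, Uqcrh from 3.06 to 1.79 and Uqcr11 from 4.16 to 2.69. Values of the long subunits fell less: Uqcrc2 from 2.79 to 2.67, Uqcrfs1 from 1.75 to 1.38, Cyc1 from 1.84 to 1.54 and Uqcrc1 from 0.42 to 0.24. Uqcrq went from 3.46 to 2.72. The part of transcript length in the result was not tested.

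**Figure D2:**
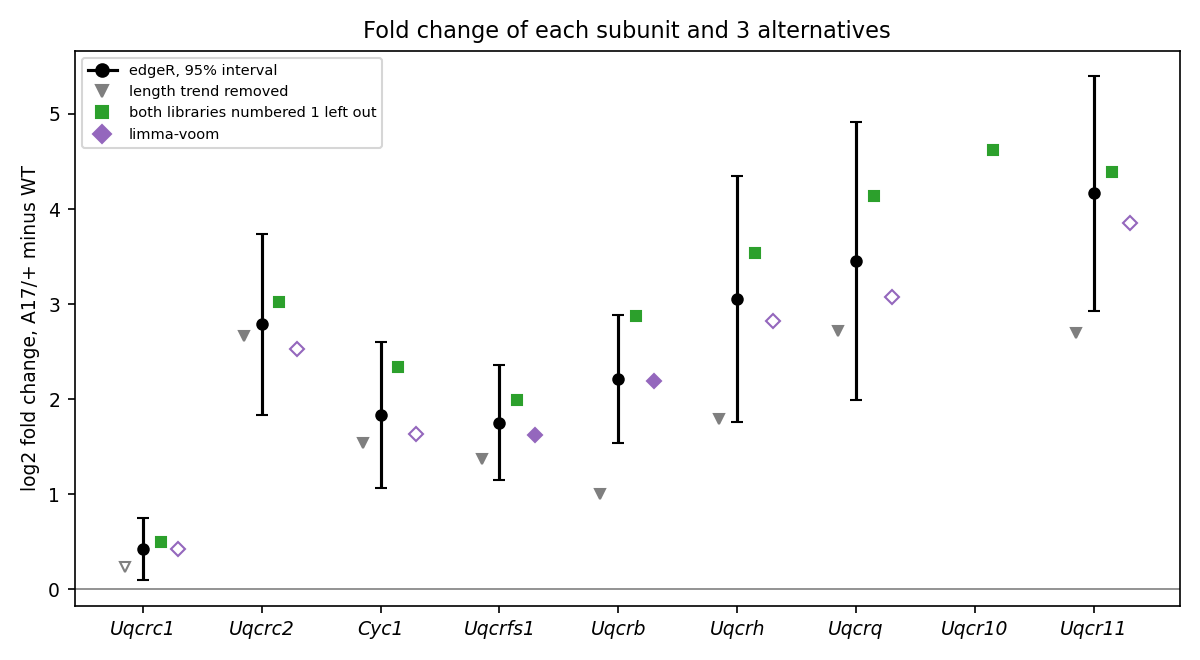
Log2 fold change (A17/+ minus WT) of each subunit. Black circles with bars are the edgeR values and their 95% intervals; grey triangles, green squares and purple diamonds are the values with the length trend removed, with both libraries numbered 1 left out and with limma-voom, filled where the adjusted p was under 0.05. Every value is above 0, Uqcrc1 is lowest (0.42 by edgeR, 0.24 with the length trend removed), and the length adjustment lowers Uqcrb, Uqcrh and Uqcr11 most.

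Summed over the 9 genes, complex III RNA reached 821 ± 135 CPM for WT and 2652 ± 881 CPM for A17/+ (SD over 4 libraries), a ratio of 3.23. Single libraries ran from 731 to 1021 CPM in WT and from 1442 CPM in A17/+ 1 to 3533 CPM in A17/+ 2. Without Uqcrc1 the sums were 282 ± 56.6 and 1925 ± 926 CPM, a ratio of 6.83. The make-up of the sum differed as well. Uqcrc1 supplied 62.6% to 71.0% of the subunit counts in each WT library. It supplied 54.7% in A17/+ 1 (354 of 647 counts, exact Clopper-Pearson 95% interval 50.8% to 58.6%), and 19.0%, 25.7% and 25.6% in A17/+ 2 to 4. That interval covers counting error within the library only, not the spread between mice.

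**Figure D3:**
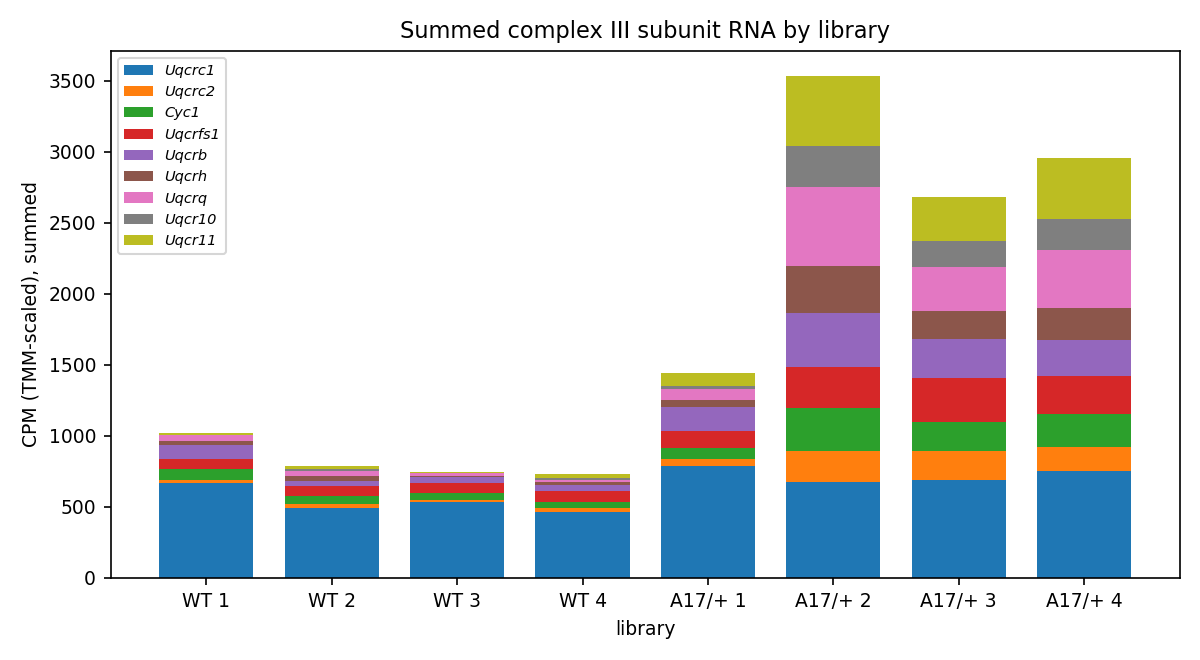
Summed level of the 9 subunits in each library (CPM), with each subunit as a segment of the bar. The Uqcrc1 segment at the bottom runs from 466 to 789 CPM, while the other segments together are 217 to 352 CPM in WT, 653 CPM in A17/+ 1 and 1989 to 2861 CPM in A17/+ 2 to 4.

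Ratios between subunits were compared for the 28 pairs of tested subunits, on the log2 scale with a prior count of 2. No pair passed after Benjamini-Hochberg adjustment (0 of 28), and 10 pairs reached the smallest possible exact permutation p of 0.0286, with an adjusted p of 0.08. With that smallest p, a pair could pass only if most of the 28 pairs reached it. The 0 of 28 therefore does not show that the ratios were unchanged. The ratio of Uqcrc1 to Uqcr11 fell most among them, from 4.50 ± 0.61 in WT to 1.36 ± 1.15 in A17/+ (SD, n = 4). The ratio of Uqcrc1 to Uqcrb fell from 3.25 ± 0.37 to 1.47 ± 0.57. Among subunits that rose, the ratio of Uqcr11 to Cyc1 went from -1.29 ± 0.69 to 0.60 ± 0.28, again without overlap. The ratio of Uqcrc2 to Uqcr11 went from 0.27 ± 0.21 to -0.96 ± 0.33, also without overlap.

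Per kilobase of mRNA the order of the subunits differed between genotypes. In WT it was led by Uqcrc1 (326 CPM per kb) and Uqcrb (102 ± 51.8, SD), followed by Uqcrfs1 (53.5 ± 4.26), Uqcrh (42.5 ± 22.6), Uqcr11 (42.4 ± 16.8), Cyc1 (35.5 ± 10.6), Uqcrq (28.9 ± 15.7), Uqcr10 (16.8 ± 19.7) and Uqcrc2. From Uqcrb downward, neighbours lay within 1 SD of each other (the larger of their SDs). In A17/+ the order began with Uqcr11 (742 ± 395 CPM per kb), Uqcrb (500 ± 161) and Uqcrc1, went on with Uqcr10 (409 ± 260), Uqcrh (371 ± 211) and Uqcrq (351 ± 210), and ended with Uqcrfs1 (180 ± 65.9), Cyc1 (133 ± 60.9) and Uqcrc2. All neighbours in that order lay within 1 SD. Uqcrc2 was lowest per kilobase in both genotypes. The Uqcrq length was taken as 963 nt, between its 405 and 1521 nt transcripts. The reads come from the 3′ end of each mRNA, and a level per kilobase is therefore a description, not a measure of relative abundance. Before division by length, Uqcrc1 led the subunits in every library of either genotype (means of 539 CPM, WT, and 727 CPM, A17/+). Mean A17/+ levels without the division were 330 CPM for Uqcr11 and 267 CPM for Uqcrb. Their place above Uqcrc1 in the A17/+ order comes from dividing by length.

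Reads shared with other genes could not be counted, since the deposited table holds assigned reads only. Overlapping or near-identical genes (at least 95% identity over at least 100 nt) had between them few counts over all 8 libraries: Pdzd9, antisense to the end of Uqcrc2, had 6, Gm10767, antisense to Uqcrb, had 3, 2 near copies of Uqcrb had 5, and a near copy of Uqcr10 had 4. Since the strand setting of the counting is not given, antisense reads cannot be told apart. Uqcrc1, Uqcrfs1, Uqcrh, Uqcrq and Cyc1 had no near copy. Another near copy of Uqcrb (Gm5457), 2 near copies of Uqcr11 and a pseudogene opposite Uqcrh (Gm12854) had no row in the table. The longest run of A inside the mRNA, where an oligo-dT primer could bind, was 14 nt in Uqcrc2 and 3 to 5 nt in the other 8.

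The mitochondrially encoded subunit, cytochrome b (mt-Cytb), which holds both sites at which coenzyme Q reacts, rose as well. WT levels of 1331, 960, 839 and 932 CPM and A17/+ levels of 2521, 7109, 5981 and 10564 CPM did not overlap. Its log2 fold change was 2.68 ± 0.38 (SE), edgeR adjusted p = 0.00398. All mitochondrial transcripts together took 4.17% to 6.43% of the counts in WT and 7.24% to 10.98% in A17/+. With them left out the same 7 nuclear subunits were called higher, where 6.05% of all tested genes rose.

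Of 6 assembly factors, which help to build the complex, only 3 passed the filter and 0 of these were called, a count too small to set against the 6.34% of all tested genes that rose: Ttc19, which helps clear Rieske fragments, had a log2 fold change of 1.14 (edgeR adjusted p = 0.0521), and Uqcc1 and Uqcc2, which guide cytochrome b, had 0.49 (0.388) and 0.52 (0.312). The unadjusted edgeR p was under 0.05 for 1 of these, Ttc19 (0.00473). Ttc19, with raw WT counts of 6, 4, 6 and 4, was tested only because its A17/+ libraries were high. Bcs1l, which inserts the Rieske protein, Lyrm7 and Uqcc3 were below the filter. Of the supercomplex factors, Higd1a had a log2 fold change of 0.53 (edgeR adjusted p = 0.279), and the other listed genes were below the filter. Cox7a2l, below the filter like Uqcr10, was at 5.42 to 12.9 CPM in WT and 20.1 to 107 CPM in A17/+, without overlap. Higd2a was at 4.46 to 9.70 CPM in WT and 8.92 to 45.2 CPM in A17/+, with A17/+ 1 inside the WT range. The mitochondrial processing peptidase genes Pmpca and Pmpcb, whose product cleaves import signals and is related to the core proteins, had 0.34 (0.466) and 0.83 (0.16) and were not called.

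Electron partners of complex III were mixed. Cycs, the cytochrome c that accepts its electrons, was not called (log2 fold change 0.90 ± 0.32 SE, edgeR adjusted p = 0.0912). Upstream, 3 of 7 tested genes for enzymes that reduce coenzyme Q rose (6.34% of all tested genes rose), all in complex II: the iron-sulfur subunit Sdhb (1.26, adjusted p = 0.0201) and the membrane anchors Sdhc (2.50, 0.0345) and Sdhd (1.13, 0.0158), by edgeR. The flavoprotein Sdha of the same complex had a log2 fold change of 0.22 (95% interval -0.08 to 0.53). The values of Etfdh, Gpd2 and Sqor, other enzymes that feed coenzyme Q, were -0.03, 0.11 and 0.67, and none was called. Sdhc ran from 5.42 to 35.7 CPM in WT and from 29.0 CPM in A17/+ 1 to 175 CPM in A17/+ 2, with overlap through WT 1 and A17/+ 1. With raw WT counts of 16, 7, 2 and 1, Sdhc reached the filter's level in too few WT libraries to pass on WT alone. The count of 3 of 7 therefore depends in part on the filter. Sdhb overlapped as well, with A17/+ 1 (98.1 CPM) below WT 1 and WT 2 (116 CPM each), while Sdhd did not overlap.

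Of 13 coenzyme Q synthesis and handling genes, 6 were tested and 2 rose, where 6.34% of all tested genes rose. Coq8a, an atypical kinase needed for coenzyme Q synthesis, had WT levels of 415, 242, 227 and 233 CPM and A17/+ levels of 548, 483, 602 and 676 CPM, without overlap (log2 fold change 1.03 ± 0.20 SE, edgeR adjusted p = 0.00634). Coq10a, a coenzyme Q binding protein, had a log2 fold change of 1.64 ± 0.43 (SE), edgeR adjusted p = 0.023. Library A17/+ 1 (31.2 CPM) lay below WT 3 (37.2 CPM). Raw WT counts of 6, 5, 11 and 3 were too low for Coq10a to pass the filter on WT alone. The count of 2 of 6 therefore depends in part on the filter. The synthesis enzymes Coq2, Coq5, Coq7 and Coq9 had log2 fold changes of 0.03, -0.09, -0.40 and 0.24 and were not called.

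**Figure D4:**
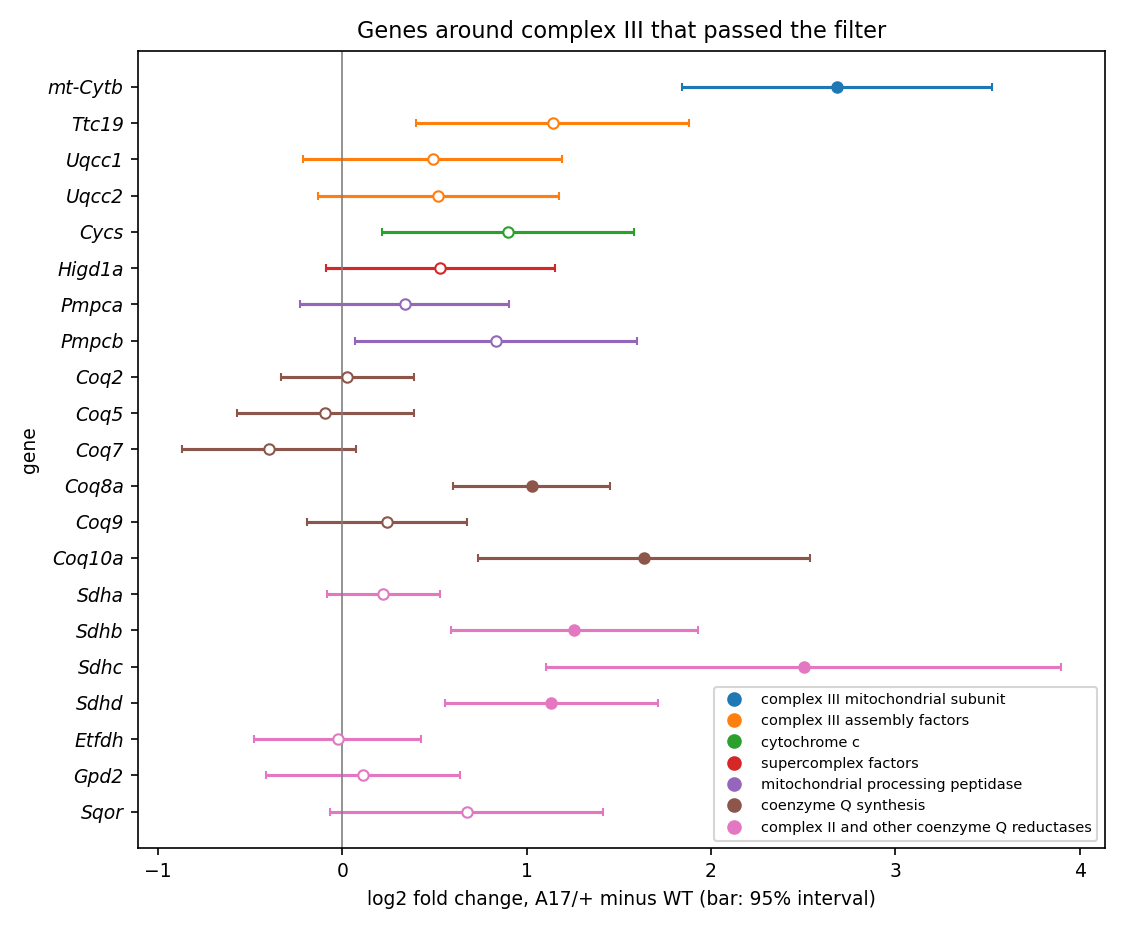
Log2 fold change (A17/+ minus WT, circles) with 95% intervals (bars) for mt-Cytb and the tested genes of complex III assembly, its electron partners and coenzyme Q synthesis, coloured by list. Filled circles had an edgeR adjusted p under 0.05: mt-Cytb, Coq8a, Coq10a, Sdhb, Sdhc and Sdhd, while the assembly factors and Cycs are open.

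The other complexes of the chain were counted by the same rule, against the same 6.34% of all genes. In complex I 20 of 25 tested nuclear subunits rose (median log2 fold change 1.98), in complex IV 12 of 12 (3.23) and in ATP synthase 12 of 15 (2.81), and in each 0 fell. Whether complex III differed from these was not tested.

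Other tested genes with a symbol were compared with the mean profile of the subunits, leaving out predicted genes (Gm with a number, or Rik). The 8 whose centred log2 level followed that profile most closely over the 8 libraries were Fxyd6, Hspb6, B2m, Slc25a4, Rpl34, Ndufa5, Mb and Dcn. Their root mean square difference from that profile was 0.14 for Fxyd6 and 0.24 for Dcn, on the log2 scale. The subunits themselves ranged from 0.26 (Uqcrc2) through 0.31 (Cyc1) to 0.76 (Uqcr11) and 1.04 (Uqcrc1). The closest genes thus included the muscle oxygen store myoglobin (Mb), the ADP/ATP carrier Slc25a4 and a complex I subunit (Ndufa5), and also an extracellular matrix proteoglycan (Dcn), a ribosomal protein (Rpl34) and a class I histocompatibility subunit (B2m). That mean profile, over the 8 tested subunits, was lowest in WT 3 (-1.43), near 0 in A17/+ 1 and highest in A17/+ 2 (1.72). Much of the profile is the difference between genotypes, so genes with a similar rise lie close to it by construction. The log2 fold changes of the 8 closest genes ran from 1.98 (Ndufa5) to 2.78 (B2m).

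Summed markers of other cell types differed in how they ran beside the complex III values. Counts of markers called higher are to be read beside the 6.34% of all tested genes that rose. Red blood cell markers (5 of 6 in the table, 1 tested) summed to 20.1 to 32.3 CPM in WT and to 100 CPM in A17/+ 1 up to 1333 CPM in A17/+ 2. Adipocyte markers (9 of 10 in the table, 3 tested, 3 higher) summed to 190 to 372 CPM in WT and to 684 to 716 CPM in A17/+, highest in A17/+ 1. The 3 tested were Plin4, Fabp4 and Lpl, and Lpl had the most counts of the list in every library. Fabp4, with raw WT counts of 6, 3, 4 and 4, was tested only because its A17/+ libraries were high. The defining marker Adipoq was at 0 in 4 of 8 libraries, and Plin1, Cidec and Pparg had at most 3 counts in any library. Cfd and Retn had 0 counts in every WT library. In A17/+ 1 to 4 Cfd had 2, 0, 4 and 3 counts and Retn had 2, 0, 4 and 2. Fibroblast markers (3 of 7 tested higher) summed to 675 to 883 CPM in WT and to 999 to 1712 CPM in A17/+, lowest there in A17/+ 1. Endothelial markers (0 of 5 higher) overlapped between the groups, at 356 to 401 CPM in WT and 354 to 480 CPM in A17/+. The part of these cell types, of depth and of the share of short transcripts in the complex III values was not tested.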

How the data were processed

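RNA of 8 tongue libraries was measured by mcSCRB-seq, which primes at the poly(A) tail and counts UMIs. Per the submitters' processing notes, cutadapt 2.10, STAR 2.7.5a, UMI-tools 1.1.1, HTSeq and the build mm10 were used; settings, strand and annotation release are not given in the sources used here. The authors deposited raw counts per Ensembl gene for all 8 libraries, and also log2 values per library; these deposited log2 values entered 1 alternative only.

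Symbols came from GENCODE by Ensembl identifier (19677 of 19857 matched). Genes were filtered with filterByExpr (minimum count 10, minimum total 15). TMM factors were computed, and genotype was tested alone in edgeR 4.0.16 (quasi-likelihood, robust; limma 3.58.1, R 4.3.3); an adjusted p under 0.05 was called. SEs are the fold change divided by the root of the F statistic. Near copies were searched with BLAST 2.17.0. The fit was tested on simulated data. The labels give 4 mice per genotype, and p-values rest on the spread between these libraries. Totals of 205696 to 485326 UMIs limit low values to a few molecules.

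The members and the lists were chosen with earlier results of these data known. Named genes are the 9 subunits, mt-Cytb, Cycs, the tested genes of the assembly, supercomplex, processing peptidase, coenzyme Q and coenzyme Q reductase lists, and the 8 genes nearest to the subunits' mean profile; complexes I, IV and ATP synthase are given as counts and medians. Alternatives were other scalings and filters, DESeq2 1.42.0, limma-voom, a replicate block, removal of mitochondrial transcripts or of a length trend, thinning, left-out libraries and, added after the data were seen, limma-trend on the deposited log2 values.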

Additional observations from a re-analysis of the deposited data

Results flagged for a closer look

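In 5 of 64 groups of 4 libraries, a single library lay far from the other 3 relative to the range of its group (Dixon's test at its 95% critical value). Chance flags about 1 in 20 such groups. Uqcrb in WT 1 was at 95.8 CPM, and the next WT library was at 44.0 CPM. Coq8a in WT 1 was at 415 CPM (next 242 CPM) and Coq9 in WT 1 at 363 CPM (next 220 CPM). Coq10a in WT 3 was at 37.2 CPM (next 16.3 CPM). Pmpca in WT 2 was at 42.0 CPM, below the next WT library at 81.2 CPM. WT 1, which held 3 of these 5 values, is also the library with 922 counts of salivary gland markers.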

How the results depend on the processing

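The direction of every subunit's fold change was the same in all alternatives run, and of 175 alternative fold changes 164 stayed on the same side of the threshold. The number of subunits called higher, 7, was 2 with limma-voom, 6 to 8 with 1 library left out and 9 with both libraries numbered 1 left out. Of all tested genes, 3.06% (without WT 3) to 10.7% (without A17/+ 1) rose with 1 library left out. Uqcrc1 was called higher only without WT 1 or without both libraries numbered 1. Genes called, 453 in all, numbered 228 with limma-voom, 853 without a filter, 797 with limma-trend on the deposited log2 values (chosen after seeing the data) and 1025 without both libraries numbered 1. With 1 library left out they ranged from 210 (without WT 3) to 890 (without WT 1). Leaving out A17/+ libraries 1, 3 or 4 gave 771, 247 or 232. The cause was not tested. The log2 ratio of the summed level, 1.69, ranged from 1.52 to 1.90 with 1 library left out. Between 6 and 13 of the 28 subunit ratios then had an exact permutation p under 0.05, and 0 passed adjustment. The smallest p was again 0.0286, so none could pass unless most of the 28 reached it. The labels share replicate numbers between genotypes, but same-numbered libraries did not deviate together (correlations 0.004, 0.072, -0.104 and -0.159), so the numbers were not used as pairs. With the replicate number as a block, 410 genes (311 higher, 99 lower) and the same 7 subunits were called. Depth limits the small subunits most: Uqcr10 had 7 counts in all WT libraries together, and Uqcr11 had 22.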
